A study of Mus musculus with 6 samples.

Results

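The sarcoplasmic reticulum of skeletal muscle stores calcium and releases it when the muscle membrane is excited. In excitation-contraction coupling, a voltage sensor in the T-tubule membrane opens release channels in the facing reticulum, and pumps of the SERCA family then return the calcium to the store. Tubule and reticulum meet at the triad, and myoblasts build this apparatus as they fuse into myotubes. The 10 genes described here were chosen by name: the release channels Ryr1 and Ryr3, the pumps Atp2a1 and Atp2a2, the luminal and junctional genes Casq2, Srl, Trdn and Jph2, and the voltage sensor subunits Cacna1s and Cacng1. All 10 were represented, by 24 of the 45037 non-control probe sets on the array, counting the probe sets whose only annotated symbol was a listed gene.

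The series compared pyruvate-treated with untreated C2C12 cells, a mouse myoblast line, on Affymetrix Mouse430_2 arrays, with 3 samples in each group and 1 array for each sample. The pyruvate group was kept for 72 h in DMEM made without sodium pyruvate, to which 50 mM sodium pyruvate was added. The untreated group had the same time in basal DMEM, for which a pyruvate content is not stated in the labels. Both media held 10% fetal bovine serum, 4 mM glutamine and 1% antibiotics, and cultures grew in 100 mm dishes. The labels call the cells undifferentiated in both groups. All 6 samples came from a single cell line, no sample from the start of the incubation was measured, and no medium matched for sodium was analysed here. The comparison asked, by the study's title, about pyruvate and mitochondrial biogenesis, and the coupling genes were read in the same contrast.

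Values are MAS5 signals, an intensity per probe set on a linear scale. Changes are differences of log2(signal + 16), pyruvate minus untreated, so they understate the change of dim probe sets. A probe set was tested by limma if its mean over the 6 arrays reached that of the median probe set, a signal of about 30.3, and called at a Benjamini-Hochberg adjusted p below 0.05 over all 22519 probe sets tested. All adjusted p-values below are of that kind unless another fit is named. Of 8 listed myoblast markers 7 passed the filter, with mean signals (n = 3 arrays in each group) from 464 for Ncam1 to 5281 for Chrna1 in pyruvate cells and from 411 for Ncam1 to 3787 for Chrna1 in untreated cells; 6 of the 7 differed between the groups, as given with the marker lists. Of these 7, Chrna1 is not particular to myoblasts. Pax7, a satellite cell marker, lay below the filter. Spiked-in hybridization controls were higher in pyruvate arrays on all 18 probe sets, by a mean log2 difference of 0.58. The changes below are relative to the array mean, to which all 6 arrays were scaled, and not to these controls. The cause of the offset was not tested. The ratio of 3′ to 5′ signal for Gapdh was 0.793 to 0.812 in pyruvate arrays and 0.788 to 0.813 in untreated arrays.

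With pyruvate, 4 of the 10 genes fell, on their brightest probe sets, to between about 16% and 36% of their untreated signal. These encode the luminal proteins Srl and Casq2, the fast-muscle pump Atp2a1 and the release channel Ryr1. Jph2, which ties the triad membranes together, was slightly higher, and Cacng1, a voltage sensor subunit, overlapped between the groups. Atp2a2, the pump also made outside striated muscle, gave different answers on different probe sets. Trdn and Cacna1s were at the floor of the arrays in both groups. By the brightest probe set of each gene, 8 genes passed the filter, of which 4 were called lower, 1 higher and 3 did not pass. Of all 10685 genes tested that way, 14.5% were called lower and 20.7% higher. At an absolute change of at least 1 on the log2 scale the same 4 genes remained called lower, where 0.627% of all genes were. The median change was -0.80 over the 8 genes and 0.03 over all genes tested, but the 8 had passed a filter on their own signal, so this is a description of them only. The list was also chosen with earlier results of these data known, so its counts beside the shares of all genes are no test of it.

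**Figure D1:**
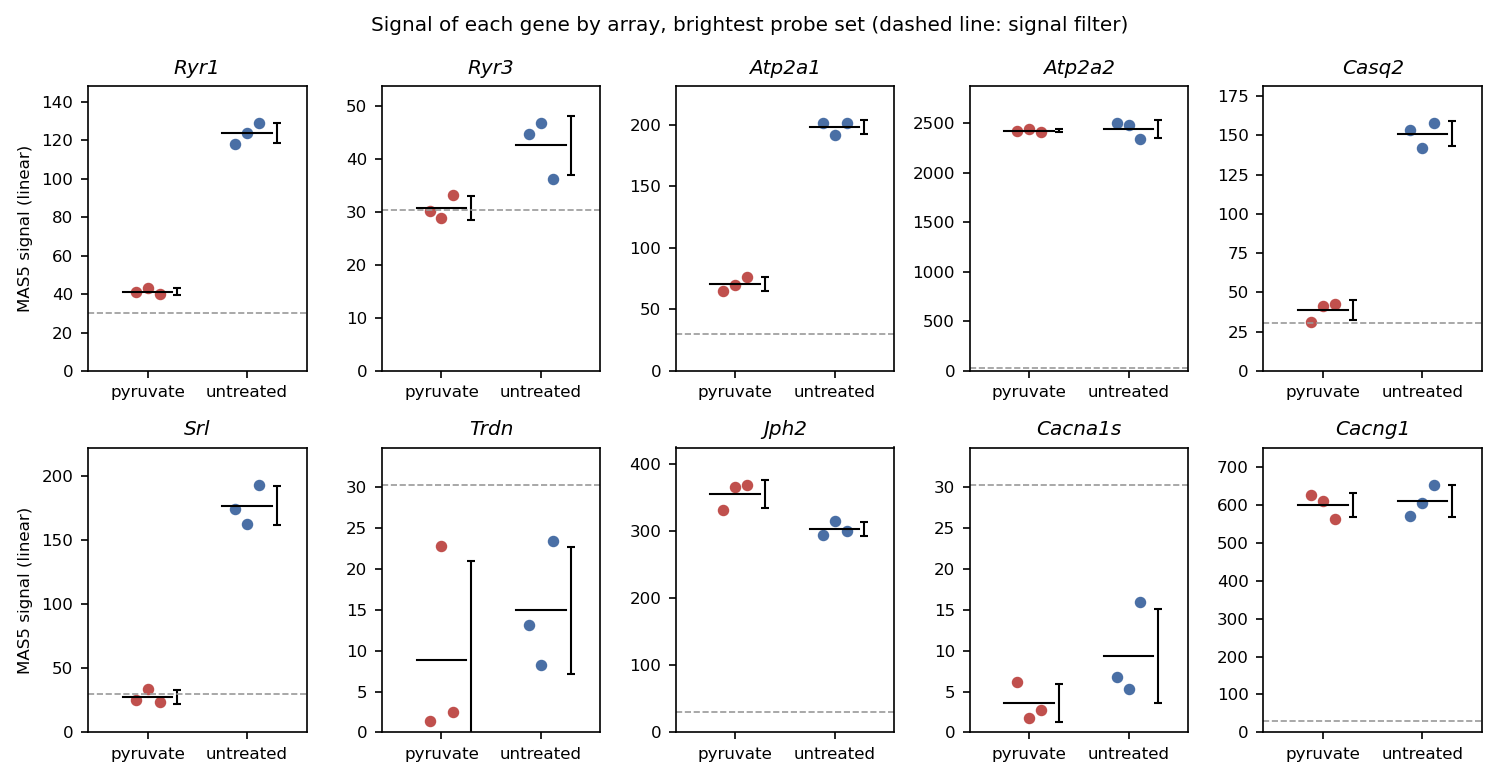
MAS5 signal on a linear axis for each of the 10 genes, brightest probe set, in 3 pyruvate arrays (left, red) and 3 untreated arrays (right, blue). Horizontal lines are means, bars to their right are SD, and the dashed line is the signal filter of 30.3. For Ryr1, Atp2a1, Casq2 and Srl every pyruvate array lies far below every untreated array, while for Cacng1 and Atp2a2 the groups overlap.

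By probe set, 14 of the 24 passed the filter. Of these, 9 were called lower, 1 was called higher and 4 did not pass, against 15.9% lower and 16.3% higher, or 32.2% in either direction, among all probe sets tested. The 9 called lower came from 5 genes, with 4 from Atp2a2 and 2 from Ryr1, and probe sets of the same gene are not independent. Pyruvate and untreated arrays were fully separated on 9 of the 14 with pyruvate lower and on 1 with pyruvate higher, where 22.5% and 22.9% of all probe sets tested were so separated. The 10 probe sets below the filter were 6 of Trdn, 2 of Ryr3, 1 of Atp2a2 and 1 of Cacna1s. Without the filter 12.9% of all probe sets were called, and of these 10 limma called 0, with 2 at an unadjusted p below 0.05. Over the 14 tested, the spread between replicate arrays had a median SD of 0.10 on the log2 scale, against 0.11 over all probe sets tested.

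**Figure D2:**
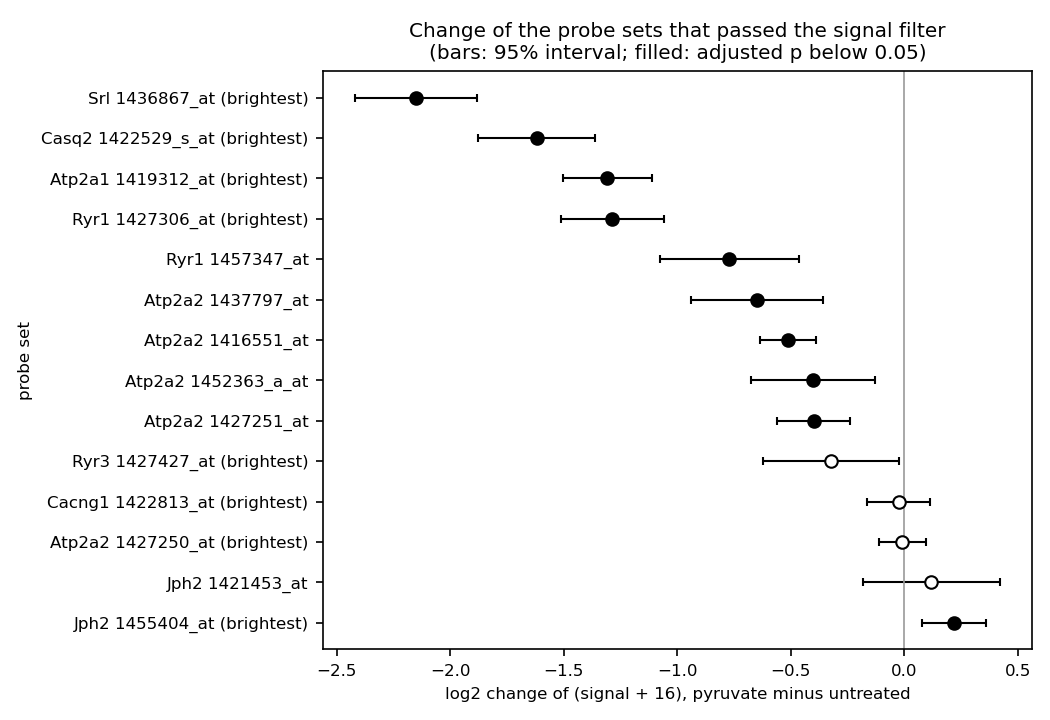
Log2 change of (signal + 16), pyruvate minus untreated, on the x axis for the 14 probe sets that passed the filter, 1 row each. Points are limma estimates, bars are 95% intervals and filled points have an adjusted p below 0.05; changes run from -2.15 for Srl to 0.22 for the brighter Jph2 probe set.

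The starts of 4 of these genes are shown because their transcripts moved apart: Atp2a1, Casq2 and Ryr1 were lower and Jph2 slightly higher. Each is the RefSeq window of mouse build GRCm38.p6 from 250 bases before to 50 after the annotated start, on the gene's own strand, 5′ to 3′. Capitals mark matches, on either strand, to the E-box CANNTG, the kind of site bound by MyoD and myogenin, and to the MEF2 site, bound by the MEF2 factors. The table held a window for 5 of the 10 genes, and for Jph2 a further window, overlapping the one shown, at a start a little downstream; Ryr3, Atp2a2, Srl, Trdn and Cacng1 are named only.
Atp2a1, chr7:126463024-126463323, minus strand: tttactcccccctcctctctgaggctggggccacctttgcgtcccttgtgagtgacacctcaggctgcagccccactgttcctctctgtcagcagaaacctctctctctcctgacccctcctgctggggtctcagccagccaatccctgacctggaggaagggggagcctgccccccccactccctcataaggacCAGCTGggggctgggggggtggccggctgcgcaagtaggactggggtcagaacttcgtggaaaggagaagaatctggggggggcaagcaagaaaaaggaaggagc
Casq2, chr3:102086165-102086464, plus strand: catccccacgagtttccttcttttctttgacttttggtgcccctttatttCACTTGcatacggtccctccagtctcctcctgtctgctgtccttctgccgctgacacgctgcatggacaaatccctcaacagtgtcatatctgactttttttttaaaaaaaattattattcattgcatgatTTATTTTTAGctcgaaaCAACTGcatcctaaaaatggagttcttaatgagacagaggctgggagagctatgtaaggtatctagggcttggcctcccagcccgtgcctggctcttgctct
Ryr1, chr7:29125102-29125401, minus strand: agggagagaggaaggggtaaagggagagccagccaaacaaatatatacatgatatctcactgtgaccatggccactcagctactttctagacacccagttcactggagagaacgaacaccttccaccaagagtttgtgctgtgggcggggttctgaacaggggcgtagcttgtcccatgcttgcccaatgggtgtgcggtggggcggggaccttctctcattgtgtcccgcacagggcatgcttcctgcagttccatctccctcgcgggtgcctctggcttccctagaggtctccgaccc
Jph2, chr2:163397944-163398243, minus strand: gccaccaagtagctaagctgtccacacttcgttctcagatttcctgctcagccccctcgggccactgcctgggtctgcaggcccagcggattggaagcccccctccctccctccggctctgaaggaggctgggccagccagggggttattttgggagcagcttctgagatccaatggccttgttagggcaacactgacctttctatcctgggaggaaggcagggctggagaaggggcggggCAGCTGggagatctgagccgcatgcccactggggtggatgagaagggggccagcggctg

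The Atp2a1 window held 1 E-box, of the form CAGCTG, with its first base at position -55, counted from the start at 0. The Jph2 window held 1 as well, also CAGCTG, at -9, in a gene whose signal was not lower. The Casq2 window held 2 E-boxes of other forms, at -200 and -52, and the only MEF2 match among the windows of the 5 genes, at -69. Ryr1 had no match of either kind in this window. The Cacna1s window, of a gene whose signal was at the floor, held 2 E-boxes, 1 of them CAGCTG. Of 32851 promoter windows of this length, 72.3% held a CANNTG, 16.3% held CAGCTG, which is a form of CANNTG, and 3.19% held a MEF2 match. CACCTG, another form of CANNTG, was searched on both strands as well and was in 20.2% of all windows and in none of those of the 5 genes. These matches describe the letters of the windows only, and binding was not measured.

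Ryr1 encodes the main calcium release channel of skeletal muscle. Its brighter probe set read 41.2, 43.0 and 39.8 in pyruvate cells, against 118.4, 123.9 and 129.0 in untreated cells. Every pyruvate array was below every untreated array, and the mean in pyruvate cells was 33.4% of that in untreated cells. The log2 change was -1.29 with a standard error of 0.10 (adjusted p = 6.4e-06). The dimmer Ryr1 probe set read 34.6, 23.6 and 35.3 in pyruvate cells, against 64.9, 65.7 and 61.1 in untreated cells, a log2 change of -0.77 (adjusted p = 0.0015). Both probe sets gave the same direction with no overlap, though the dimmer was close to the filter in pyruvate cells.

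Ryr3 encodes a second release channel isoform, made in skeletal muscle mainly during development. Its brightest probe set read 30.2, 28.8 and 33.3 in pyruvate cells, against 44.7, 46.8 and 36.3 in untreated cells. The arrays did not overlap, but the difference did not pass, with a log2 change of -0.32, a 95% interval of -0.62 to -0.02 and an adjusted p of 0.095. Only in limma without the variance trend was it called, at an adjusted p of 0.033. Its other 2 probe sets averaged no more than 16.9 in pyruvate cells and 28.3 in untreated cells and overlapped between groups. The change of Ryr1 was lower than that of Ryr3 by 0.96 on the log2 scale (standard error 0.12), with no overlap between groups in the per-array difference. The exact two-sided permutation p was 0.1, the smallest that 3 against 3 arrays allow, and 0.15 after adjustment over the 3 pairs compared. With both Ryr3 groups near the floor, the size of this difference is limited by the array's low end.

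Atp2a1 encodes SERCA1, the calcium pump of fast skeletal muscle. Its single probe set read 65.1, 69.9 and 76.4 in pyruvate cells, against 201.1, 191.6 and 200.9 in untreated cells. The groups were far apart, at 70.5 ± 5.67 in pyruvate cells and 198 ± 5.43 in untreated cells (SD, n = 3), and neither group's arrays spread far. The log2 change was -1.31 with a standard error of 0.09 (adjusted p = 2.1e-06).

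Atp2a2 encodes SERCA2, whose splice forms serve slow and cardiac muscle and the endoplasmic reticulum of most other cells. Its 6 probe sets disagreed. The brightest read 2420.8, 2443.2 and 2413.7 in pyruvate cells, against 2501.8, 2482.9 and 2338.6 in untreated cells, and these overlap. Its log2 change was -0.01 with a 95% interval of -0.11 to 0.09 (adjusted p = 0.91).

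The next brightest Atp2a2 probe set read 441.7, 432.1 and 418.4 in pyruvate cells, against 656.1, 616.5 and 592.0 in untreated cells. There the groups were separate, with a log2 change of -0.51 and a standard error of 0.06 (adjusted p = 5.5e-05). Of the 5 Atp2a2 probe sets tested, 4 were called lower, with changes from -0.65 to -0.40. Among them the third brightest overlapped between groups and passed at an adjusted p of 0.029. That call was lost without pyruvate replicate 2 (adjusted p = 0.068), without pyruvate replicate 3 (0.116), without untreated replicate 1 (0.115) and without untreated replicate 3 (0.085). The probe set below the filter read 17.1, 15.8 and 15.0 in pyruvate cells, against 28.6, 32.9 and 25.7 in untreated cells, and did not pass without the filter (adjusted p = 0.076).

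**Figure D3:**
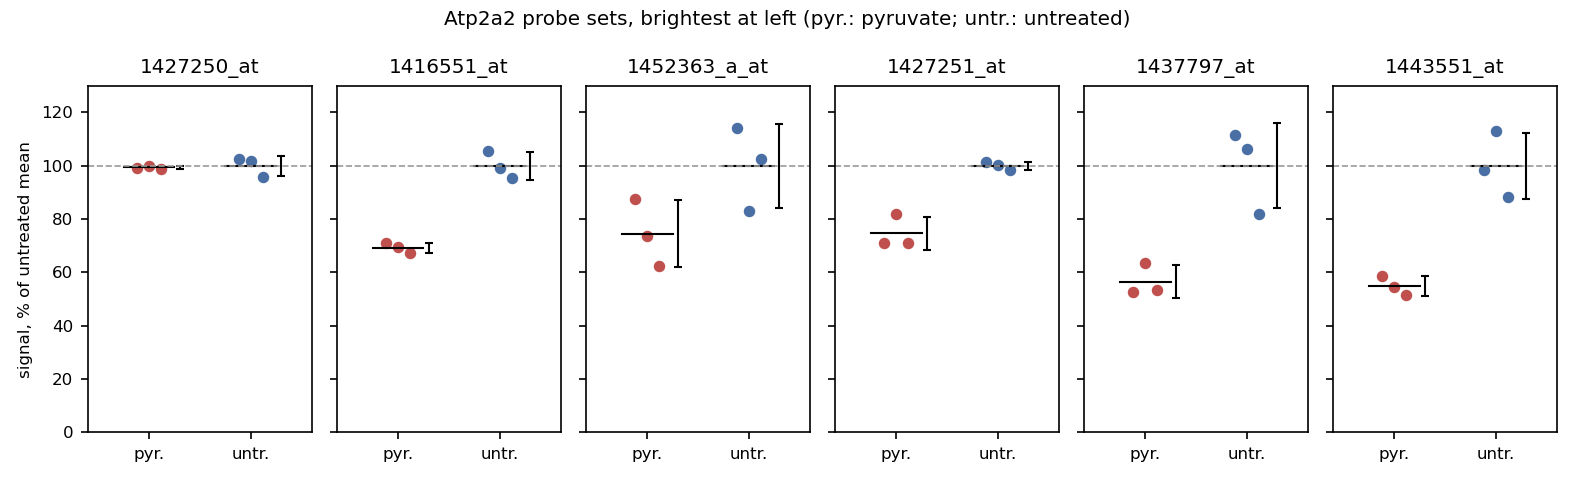
Signal of the 6 Atp2a2 probe sets as a percentage of each one's untreated mean, in 3 pyruvate arrays (left, red) and 3 untreated arrays (right, blue), with means and SD bars; the brightest probe set is at the left. The brightest stays at 99.4% of its untreated mean in pyruvate cells, while the other 5 average between 54.9% and 74.6%.

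The files do not say which part of the transcript each Atp2a2 probe set reads. The brightest lay where other probe sets leaned upward: among 745 tested probe sets within 0.5 log2 units of its mean signal the median change was 0.11. After quantile normalization its change was -0.11 (adjusted p = 0.055), and after cyclic loess normalization, which also removes trends with brightness, it was -0.16 (adjusted p = 0.012). Averaged over its probe sets, the gene was called lower, at -0.41 (adjusted p = 0.00090). The change of Atp2a1 was lower than that of the brightest Atp2a2 probe set by 1.30 (standard error 0.07), with no overlap of the per-array difference (exact two-sided permutation p = 0.1, the smallest possible; 0.15 over the 3 pairs).

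Srl, which encodes the calcium-binding luminal protein sarcalumenin, had the lowest change of the 10 genes and the 12th lowest of all 10685 genes. It read 25.4, 33.6 and 23.7 in pyruvate cells, against 174.3, 163.0 and 193.4 in untreated cells. In pyruvate cells the mean was below the filter and 15.6% of that in untreated cells. The log2 change was -2.15 with a standard error of 0.12 (adjusted p = 5.0e-07). With every signal beneath the filter threshold set to that threshold first, so that differences beneath it did not count, the change was -2.02. Casq2 encodes a calsequestrin, the cardiac and slow-muscle form of the protein that buffers calcium in the lumen. It read 31.3, 41.6 and 42.9 in pyruvate cells, against 153.4, 142.1 and 157.8 in untreated cells. The groups did not come near each other, although the pyruvate values lay just above the filter, and the log2 change was -1.62 with a standard error of 0.12 (adjusted p = 2.9e-06). Its only probe set has the suffix that Affymetrix gives where probes can match more than 1 transcript.

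At the junction, the genes differed. Jph2, whose product bridges the T-tubule and the reticulum, read 331.4, 366.0 and 369.1 on its brighter probe set in pyruvate cells, against 294.2, 314.7 and 299.7 in untreated cells. The pyruvate arrays were all higher, by 0.22 on the log2 scale with a 95% interval of 0.08 to 0.36 (adjusted p = 0.022). The dimmer Jph2 probe set read 104.0, 107.1 and 142.4 in pyruvate cells, against 86.8, 121.4 and 113.0 in untreated cells, which overlap (log2 change 0.12, adjusted p = 0.54). The call on the brighter probe set was lost without pyruvate replicate 2 (adjusted p = 0.071), pyruvate replicate 3 (0.073), untreated replicate 1 (0.086) or untreated replicate 3 (0.064). Averaged over both probe sets Jph2 did not pass (0.17, adjusted p = 0.18).

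Trdn encodes triadin, which anchors calsequestrin to the release channel. None of its 6 probe sets exceeded 22.8 on a pyruvate array or 23.4 on an untreated array, and the lowest values were 1.1 on a pyruvate array and 2.3 on an untreated array. Of the 6, 5 had a lower mean in pyruvate cells. Limma without the filter called 0 of them, with 1 at an unadjusted p below 0.05, so a change of Trdn was not resolved at this signal.

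The voltage sensor subunits gave no call. Cacna1s, the pore-forming subunit that senses voltage, read 6.2, 1.8 and 2.7 in pyruvate cells, against 6.8, 5.3 and 16 in untreated cells, all far below the filter. Without the filter its log2 change was -0.36 with a 95% interval of -0.75 to 0.04 (adjusted p = 0.25). Cacng1, the gamma subunit of the skeletal muscle channel, was well above the floor. It read 626.5, 609.4 and 563.3 in pyruvate cells, against 571.9, 605.4 and 653.4 in untreated cells. The groups overlapped, with a log2 change of -0.02 and a 95% interval of -0.16 to 0.12 (adjusted p = 0.81), an interval that leaves out changes of the size seen for Ryr1, Atp2a1, Casq2 and Srl. The change of Cacna1s was lower than that of Cacng1 by 0.33 (standard error 0.16), and the per-array differences overlapped (exact two-sided permutation p = 0.2, also after adjustment).

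Other genes of the triad, the T-tubule and the reticulum were read from a list of 30, of which 28 were on the array with a symbol of their own and 20 passed the filter. Of those 20, 5 fell and 1 rose by the brightest probe set, where 14.5% and 20.7% of all genes tested did, with a median change of -0.10. Their probe sets were less one-sided: of 45 tested, 14 were called lower and 7 higher, where 15.9% and 16.3% of all probe sets tested were. Some of these belong to genes not called by their brightest probe set, and probe sets of the same gene are not independent. Tmem38a, which encodes the reticulum's cation channel TRIC-A, read 51.1, 47.5 and 53.4 in pyruvate cells, against 88.3, 101.6 and 133.2 in untreated cells (log2 change -0.88, adjusted p = 0.00057), and both of its probe sets were called lower. Hrc, a histidine-rich calcium-binding protein of the lumen, read 58.5, 60.0 and 49.9 in pyruvate cells, against 114.9, 120.6 and 112.1 in untreated cells (-0.87, adjusted p = 0.00010). In both genes all pyruvate arrays lay below all untreated arrays. Ank1, which has a small muscle form that sits in the reticulum membrane, fell by 0.43 (adjusted p = 0.00092), and both of its probe sets past the filter were called lower. The mean over all 4 Ank1 probe sets, of which 2 lay below the filter, did not pass (adjusted p = 0.28). Cacnb1, the beta subunit of the voltage sensor, and Mrln, which encodes the SERCA inhibitor myoregulin, fell by 0.41 and 0.35.

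The calls of Cacnb1 and Mrln were close to the threshold (adjusted p = 0.029 and 0.035). Cacnb1 lost its call without pyruvate replicate 3 (adjusted p = 0.0998), untreated replicate 2 (0.076) or untreated replicate 3 (0.118), and Mrln without pyruvate replicate 1 (0.099), pyruvate replicate 3 (0.063), untreated replicate 1 (0.085) or untreated replicate 2 (0.146). Neither passed without the signal filter (adjusted p = 0.081 and 0.087). Of the 3 Cacnb1 probe sets tested only the brightest was called, and the next brightest changed by -0.03 (adjusted p = 0.90). The gene that rose was S100a1, a calcium sensor that binds release channels and SERCA. It read 524.5, 551.9 and 545.8 in pyruvate cells, against 331.0, 299.0 and 344.9 in untreated cells, and its change was 0.71 with a standard error of 0.06 (adjusted p = 1.4e-05). Its other probe set was called higher as well. The SERCA regulators Sln and Pln were below the filter, as were Ryr2, Sypl2, Cav3, Dysf, Trim72 and Clcn1. Of the listed small regulators of the pump, Sln, Pln and Mrln, only Mrln passed the filter.

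Genes for calcium stores and calcium transport that most cells use had called members in both directions. Of 24 listed, 21 were on the array and 19 passed the filter, of which 4 fell and 5 rose, with a median of 0.05. These counts are near the 14.5% lower and 20.7% higher among all genes tested, so they say nothing particular about the list. Atp2b1, the plasma membrane calcium pump, averaged 643 ± 25.8 in pyruvate cells and 1292 ± 30.8 in untreated cells (SD, n = 3), a change of -0.99 (adjusted p = 2.1e-07), and all 3 of its probe sets were called lower. Stim2, a sensor of store calcium, fell by 0.61, while Orai2, a subunit of the store-operated channel, rose by 0.75. Itpr2, an inositol trisphosphate receptor, rose by 0.65, and the luminal calcium-binding proteins Sdf4 and Calu rose by 0.45 and 0.32. Over all probe sets of the list, 38 were tested, with 10 called lower and 7 higher, where 15.9% and 16.3% of all probe sets tested were. The dimmer probe sets differed for several of the named genes. The other probe set did not pass for Stim2 (-0.02, adjusted p = 0.92) or Orai2 (0.19, adjusted p = 0.18), and for Calu it was called lower. For Itpr2 2 of 3 tested probe sets were called higher, and for Sdf4 1 of 2. Averaged over all probe sets, including 3 of 6 below the filter for Itpr2 and 1 of 3 for Sdf4, Itpr2 (adjusted p = 0.27), Sdf4 (0.28) and Calu (0.52) did not pass.

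Among genes that read the calcium signal, 16 of 19 listed were on the array and 14 passed the filter. By the brightest probe set 3 of these fell and 2 rose, with a median of 0.01, where 14.5% and 20.7% of all genes tested fell and rose. Over all their probe sets, 33 were tested, with 5 called lower and 9 higher, where 15.9% and 16.3% of all probe sets tested were. Rcan2, a regulator of calcineurin, averaged 502 ± 29.7 in pyruvate cells and 280 ± 16.8 in untreated cells (SD, n = 3), a change of 0.81 (adjusted p = 7.9e-06), on both of its probe sets. The calcineurin subunit Ppp3cb fell by 0.38, while the subunit Ppp3ca rose by 0.19 (adjusted p = 0.040). Camk2d, a CaM kinase subunit, fell by 0.60, though 1 of its other probe sets was called higher and its mean over probe sets did not pass (adjusted p = 0.15). The calpain Capn1 fell by 0.27 on 1 probe set (adjusted p = 0.036), while its other probe set, of like signal, overlapped between groups (0.04, adjusted p = 0.75). All 3 Ppp3ca probe sets were called higher, the dimmer 2 by 0.31 (adjusted p = 0.0069) and 0.36 (adjusted p = 0.018). On the brightest probe set, the calls of Ppp3ca and Capn1 were each lost without any of 5 of the 6 arrays, with Ppp3ca keeping its call without pyruvate replicate 3 and Capn1 without pyruvate replicate 1, and adjusted p-values over the 6 of 0.025 to 0.143 for Ppp3ca and 0.0062 to 0.116 for Capn1.

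**Figure D4:**
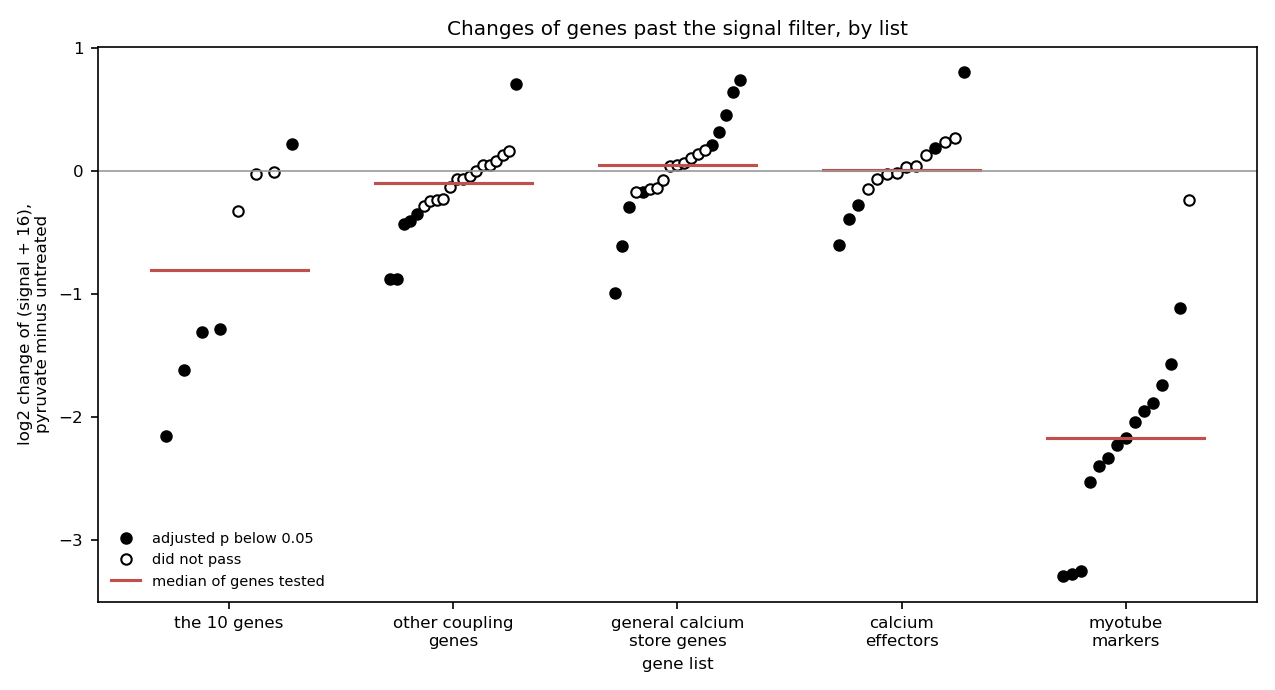
Log2 change of (signal + 16), pyruvate minus untreated, for the genes past the signal filter in 5 lists, 1 point per gene by its brightest probe set; filled points passed at an adjusted p below 0.05 and red lines are medians. The 10 genes' list spans -2.15 to 0.22, the 3 calcium lists centre near 0, and the myotube markers centre at -2.17. Some genes, such as Srl, Tnnt3 and Myh3, passed the filter only through their untreated signal.

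Most tested markers of myotubes were lower with pyruvate, as were Srl, Casq2, Atp2a1 and Ryr1, but not Jph2 or Cacng1. Of 21 listed sarcomere and myotube markers, 15 passed the filter, with a median change of -2.17. By limma 14 fell and 0 rose (0 also at an unadjusted p below 0.05), where 14.5% and 20.7% of all genes tested did. The summed signal of the list, over the brightest probe sets, was 1864 to 2236 in pyruvate arrays and 9535 to 9841 in untreated arrays. The lowest changes were those of the troponin Tnnc2, the actins Acta1 and Actc1, the myosin light chain Mylpf and the troponins Tnni1 and Tnnt3, which ran from -3.30 for Tnnc2 to -2.33 for Tnnt3. Tnnt3 averaged 28.2 in pyruvate cells and 203.6 in untreated cells, and the myosin Myh3 averaged 26.8 and 148.9. Both passed the filter only through the untreated group, so the count and median describe these markers only. Acta1, skeletal muscle actin, was at a mean of 87.2 in pyruvate cells and 982 in untreated cells. No marker of this or the lists below was at 0 on every array, and the adult myosin heavy chains Myh1, Myh2 and Myh4 did not pass the filter. Of these Myh1 averaged 12.2 in pyruvate cells and 37.8 in untreated cells, with no overlap, and was called lower without the filter (-0.94, adjusted p = 0.0091). In bulk RNA, fewer cells of a type and less RNA per cell cannot be told apart, and the part that the number of myotube-forming cells has in the fall of Srl, Casq2, Atp2a1 and Ryr1 was not tested.

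Of the myoblast markers 3 of 7 tested were higher and 3 lower, where 20.7% and 14.5% of all genes were. The acetylcholine receptor gene Chrna1, listed here but not particular to myoblasts, rose by 0.47, Myod1 by 0.26 and Ncam1 by 0.17. Myf5 fell by 0.65, Cdh15 by 0.39 and Itga7 by 0.21. Myod1 and Myf5 are myogenic regulatory factors. Des, the muscle intermediate filament gene, did not pass (-0.08, adjusted p = 0.21). Averaged over probe sets Myod1 and Ncam1 did not pass (adjusted p = 0.367 and 0.749). The call of Ncam1 was also lost without any array but pyruvate replicate 1 (0.059 to 0.097), and that of Itga7 without untreated replicate 1 (0.051). The list had a summed signal of 12224 to 13316 in pyruvate arrays and 11920 to 12152 in untreated arrays. That sum leans on Chrna1, at a mean of 5281 in pyruvate cells and 3787 in untreated cells, and does not speak for the other markers. Of the smooth muscle markers, 3 of 6 passed the filter, with Tagln and Acta2 higher and Smtn lower, and a summed signal of 5629 to 6658 in pyruvate arrays and 4118 to 4301 in untreated arrays; Myh11, Cnn1 and Lmod1, which define smooth muscle, were below the filter. Smtn lost its call without any array but untreated replicate 2 (adjusted p = 0.052 to 0.152). Of the cardiac markers, 3 of 8 passed the filter and Tnnt2 and Nppb were lower, with a summed signal of 568 to 624 in pyruvate arrays and 1088 to 1174 in untreated arrays; the heart genes Myh6, Myl7 and Tnni3 were below the filter. The cardiac sum leans on Tnnt2, which is not particular to heart, at a mean of 436 in pyruvate cells and 915 in untreated cells. It does not speak for the other cardiac markers. Nppb lost its call without untreated replicate 3 (adjusted p = 0.051). Of 5 fibroblast, 1 adipocyte and 3 osteoblast markers tested, limma called 0 by the brightest probe set, with 2 fibroblast markers lower and 1 higher at an unadjusted p below 0.05. Changes of the brightest were 0.05 for Col3a1, which turned lower and was called after quantile (-0.18, adjusted p = 0.0024) or cyclic loess normalization (-0.15, 0.0067) or averaged over probe sets (-0.39, 0.00039), and -0.08 for Fbln1 (fibroblast), 0.24 for Pparg (adipocyte), and 0.25 for Phex and -0.07 for Sp7 (osteoblast). The part of these lists in the changes of the coupling genes was not tested.

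Across arrays, the members' median profile, taken over the 8 genes past the filter after centring each on its own mean, lay between -0.41 and -0.33 on the pyruvate arrays and between 0.39 and 0.44 on the untreated arrays. The non-member genes closest to it by root mean square distance over the 6 arrays were Mt2, a metallothionein, Fabp5, a fatty acid-binding protein, Spty2d1, Chml and Elovl6, at 0.03 to 0.05 log2 units. They share a change of about this size, from -0.81 for Chml to -0.75 for Mt2, a size that falls between the 4 strongly lower genes and the rest and that none of the 8 genes showed on its brightest probe set; the dimmer Ryr1 probe set, at -0.77, did.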

How the data were processed

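Total RNA was extracted with TRIzol and labelled with biotin by in vitro transcription, per the labels' protocols. The authors deposited MAS5 signals, per the submitters' processing notes, as 1 linear intensity per probe set and array, with no version or settings stated. After trimming 2% of probe sets at each end, all 6 arrays had a mean signal of 150.0, so the authors had scaled them alike, and this scaling was kept. It hides any change in total RNA per cell. Detection calls were not used here, and arrays carry no read depth, so the number of arrays limits precision.

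Of 45101 probe sets, 64 controls were left out. Symbols came from the platform annotation, checked by Entrez identifier against a RefSeq table of GRCm38.p6: 34945 probe sets had 1 symbol, and the 932 with several and 9160 with none named no gene. The brightest probe set stood for a gene.

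Signals were taken as log2(signal + 16), and probe sets with a mean below the median (log2 5.53) were not tested, unless a fit without the filter is named. Groups were compared with limma 3.58.1 in R 4.3.3 (lmFit, eBayes with trend, two-sided), adjusted by Benjamini-Hochberg over 22519 probe sets. Separate cultures are not stated in the labels, so the p-values cover the spread between these samples only, and that spread may be technical. Members and lists were chosen with earlier results of these data known. Named from each other list were the up to 6 called genes with the largest absolute change, or the 2 brightest where none was called. Other marker genes named, such as Des, Pax7 and those below the filter, were chosen after their values were seen. No alternative was added later. Simulated arrays built from these means and spreads, with 22519 probe sets, gave back 6% of 50 changes of 0.25, 52% of 50 of 0.5, 92% of 50 of 1 and 98% of 50 of 2. Only those probe sets were given a change, and 126 were called in all, against 7250 in the real arrays. The adjusted threshold was therefore stricter in the simulation, so these rates may understate what the real fit could call. Figures were drawn with matplotlib 3.10.9.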

Additional observations from a re-analysis of the deposited data

How the results depend on the processing

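The calls of Srl, Casq2, Atp2a1 and Ryr1 on their brightest probe sets held in every alternative that tested them, with changes of -2.65 to -1.40, -1.95 to -1.07, -1.48 to -0.96 and -1.56 to -0.83, the outer values from pseudocounts of 1 and 64. Members called lower numbered 4, and 5 with cyclic loess, without the variance trend or averaged over probe sets; the stricter filter, a mean signal of 154 or more, left 0, since none of these 4 was then tested. Members called higher numbered 1 (Jph2), and 0 without the variance trend or averaged over probe sets, and 0 to 1 with an array left out. Other coupling genes called lower numbered 5, and 3 without the filter, 1 with the stricter filter, 7 with cyclic loess and 3 to 6 with an array left out. Averaging over probe sets left 2 store genes higher (5 by the brightest probe set), 1 effector lower (3) and 3862 features called (7250 probe sets). Effectors called higher numbered 2, and 3 averaged over probe sets, and 1 without the filter, without the trend, with array weights or with the replicate block, and 1 to 2 with an array left out. Requiring a log2 change of at least 1 left 223 probe sets in all, the same 4 members lower and 0 higher, and 0 in either direction in the other coupling, store and effector lists. Changes that did not pass crossed 0 with an array left out: -0.039 to 0.0096 for the brightest Atp2a2 probe set, -0.0071 to 0.21 for the dimmer Jph2 probe set and -0.068 to 0.025 for Cacng1. Averaged over probe sets Calu turned to -0.041, Fbln1 to 0.061 and Col3a1 to -0.39; Col3a1 was also at -0.18 with quantile and -0.15 with cyclic loess normalization, and Sp7 at -0.14 to 0.026 with an array left out. The cause was not tested in these cases. Replicate numbers did not pair the arrays (correlations of same-numbered deviations -0.0088, 0.014 and 0.021), and with the replicate block 6917 probe sets were called, with 4 members lower and 1 higher. Values near the floor, as for Trdn, Cacna1s and Ryr3, limit what could be seen.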
